A study of Mus musculus with 6 samples.

Results

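Ribosome biogenesis and nucleolar genes, 40 of the 57186 genes in the deposited count table, were examined in mouse bladder tumours with and without the Y chromosome. The 40 were chosen by gene symbol: the transcription factor gene Myc and 39 genes for nucleolar and ribosome assembly proteins. No measured value of these libraries entered the rule, although the 40 were chosen with earlier results of these data known. All 40 symbols matched a row and were tested. The study compared tumours grown from MB49 cells, a line from a bladder carcinoma of a male mouse. The Y-KO cells had been edited with CRISPR to lose the Y chromosome, and the Y-Scr cells carried a scrambled CRISPR control. Both were grafted subcutaneously in C57Bl/6J mice. At a volume of 500 mm3 the tumours were removed, and cells negative for CD45, the common leukocyte antigen, were sorted for RNA. The 3 Y-KO and 3 Y-Scr libraries shared 1 batch label. All libraries come from grafts of this 1 line, placed outside the bladder, and the sorted cells can include host stroma. The labels used here give neither the sex and age of the mice nor the number of edited clones. They also do not say whether each replicate was its own animal. The p-values then reflect only how much these libraries vary, and that variation may be technical.

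Ribosome assembly begins in the nucleolus, where RNA polymerase I transcribes the long ribosomal RNA precursor. Small nucleolar ribonucleoproteins (snoRNPs) guide its chemical modification, a large complex called the small-subunit processome folds and cleaves its first part, and separate sets of helicases, GTPases and scaffold proteins build the large subunit. The Myc protein binds E-boxes (CACGTG) with its partner Max and is known as a general activator of these genes, and large nucleoli are a long-known mark of growing tumour cells.

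The promoter windows of RefSeq (build GRCm38.p6, 250 bases before to 50 after each start) covered 33 of the 40 genes, matched by symbol. They come from an older build than the counts, so gene coordinates below are those of the deposited table (GRCm39) and sequence coordinates those of GRCm38.p6. The following 120-base stretches run 5′ to 3′ from 90 bases before the start through its first 30 bases, with an E-box, CACGTG, in capitals. They are the 5 members with an E-box inside that stretch and are shown because Myc is itself a member. Nop2 lies at chr6:125131793-125131912, plus strand, Pes1 at chr11:3963885-3964004, plus strand, Utp4 at chr8:106893550-106893669, plus strand, Wdr43 at chr17:71616125-71616244, plus strand and Tsr1 at chr11:74897990-74898109, plus strand.
Nop2: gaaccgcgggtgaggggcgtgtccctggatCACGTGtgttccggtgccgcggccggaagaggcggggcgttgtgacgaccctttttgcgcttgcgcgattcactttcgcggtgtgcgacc
Pes1: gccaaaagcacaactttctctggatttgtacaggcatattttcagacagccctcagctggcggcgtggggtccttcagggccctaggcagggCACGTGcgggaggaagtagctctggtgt
Utp4: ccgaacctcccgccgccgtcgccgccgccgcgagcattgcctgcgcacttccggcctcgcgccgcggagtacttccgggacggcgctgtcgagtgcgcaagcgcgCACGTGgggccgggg
Wdr43: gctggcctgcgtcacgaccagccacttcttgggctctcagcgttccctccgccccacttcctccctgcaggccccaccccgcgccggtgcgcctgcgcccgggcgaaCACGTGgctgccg
Tsr1: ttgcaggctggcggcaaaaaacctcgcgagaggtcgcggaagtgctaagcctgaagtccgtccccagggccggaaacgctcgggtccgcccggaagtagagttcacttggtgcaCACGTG
Nolc1 (chr19:46075757-46075876, plus strand) and Nhp2 (chr11:51619683-51619802, plus strand) hold the variant CACGCG, read here as CGCGTG, in capitals. Ncl (chr1:86359426-86359545, minus strand) holds neither form and is printed all in lower case. These genes had some of the largest log2 fold changes of the 40.
Nolc1: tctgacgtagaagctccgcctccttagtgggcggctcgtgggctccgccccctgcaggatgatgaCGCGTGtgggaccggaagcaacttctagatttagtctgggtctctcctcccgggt
Nhp2: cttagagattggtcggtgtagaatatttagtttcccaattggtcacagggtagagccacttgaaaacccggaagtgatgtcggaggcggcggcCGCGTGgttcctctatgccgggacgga
Ncl: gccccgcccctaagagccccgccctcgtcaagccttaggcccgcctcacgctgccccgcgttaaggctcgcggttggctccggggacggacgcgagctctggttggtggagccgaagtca

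Searched on both strands over the full 300 bases, CACGTG was found in 7 of the 33 genes (21.2%), against 18.7% of other ribosome biogenesis genes, 11.1% of all genes tested with a window and 8.1% of all genes with a window. With the base at the start numbered 1, its first base lay at -60 in Nop2, 3 in Pes1, 16 in Utp4, 18 in Wdr43, 25 in Tsr1, 38 in Utp20 and 41 in Mybbp1a. None of the 33 held more than 1 E-box. The variant CACGCG or CGCGTG, whose forward and reverse copies can overlap, was found in 10 of the 33 genes (30.3%) and in 18.4% of genes tested. Of other short motifs, CCGGAA or its reverse TTCCGG, the core of ETS factor sites, was found in 39.4% of the members and 29.3% of genes tested, and GGGCGG or CCGCCC, the GC box, in 78.8% and 64.4%. CCAAT or ATTGG was found in 36.4% of the members and 42.4% of genes tested. TATAAA or TTTATA was in 6.1% and 9.6%. Among members called higher in the expression test below, 3 of 15 with a window (20%) held an E-box, and among members not called 4 of 18 (22.2%). The median log2 fold change was 0.29 for the 7 members with the E-box and 0.37 for the 26 without it. A match is a description of the letters in the window, and the differences in share were not tested.

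Library depth, replicate spread and cell content were looked at before the members. Library totals ran from 42040955 to 52951031 counts, and single members had from 1306 to 62067 counts in a library. The Y-linked genes Kdm5d and Ddx3y, which check the labels, stood at 1.77 to 4.42 and 8.79 to 22.7 CPM in Y-KO and at 39.3 to 46.7 and 128 to 162 CPM in Y-Scr (CPM, the count relative to the library total after scaling by the trimmed mean of M-values, TMM). Ptprc, the gene for CD45, was still at 134 to 298 CPM in Y-KO and 521 to 601 CPM in Y-Scr although the cells were sorted as CD45-negative. The keratin gene Krt18 was at 1236 to 1266 and 886 to 1007 CPM. Epcam was at 0.908 to 1.22 and 3.07 to 4.62 CPM, and the urothelial markers Upk2 and Upk3a had no counts in any library. Over 7972 genes with a mean of at least 20 CPM, the SD of the log2 difference between Y-KO replicates 1 and 2 was 0.147, whereas replicate 3 stood at 0.438 and 0.442 from them. Among Y-Scr libraries it was 0.109 to 0.186, with replicates 2 and 3 the closest. Y-KO replicate 3 therefore stands apart, and it is given beside replicates 1 and 2 throughout. All values below are listed in the order of replicates 1, 2 and 3, and in bulk samples fewer cells of a type and less RNA per cell cannot be told apart.

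Of the 40 genes, 18 were higher in Y-KO, 0 were lower and 22 did not pass the test (edgeR's quasi-likelihood test over 17837 genes, called where the adjusted p was under 0.05). Among all genes tested 16.1% were called, 7.82% higher and 8.27% lower. All 40 log2 fold changes were above 0, from 0.06 to 0.97 with a median of 0.31, beside a median of -0.03 over all genes, of which 47.5% lay above 0. Scaling by library size only moved the median of all genes to -0.17 and that of the members to 0.17. The sign then turned in 7 of the 40 (Fbl, Nop58, Utp4, Tsr1, Bop1, Gnl2 and Noc2l), and 8 of the 40 were called. The distance between these medians was 0.34 under either scaling. Such a change shifts every gene by nearly the same amount, so the distance could hardly differ and does not test the result. Of all genes, 730 were called higher and 2255 lower when scaled by library size only, instead of 1395 and 1476. At an unadjusted p under 0.05, 27 of the 40 were higher and 0 lower, beside 2686 higher and 2785 lower of the 17837 genes. DESeq2 called 20 members higher and limma-voom 19, with 0 lower in either, beside 7.72% and 8.55% of all genes called higher. In 28 of the 40 every Y-KO library lay above every Y-Scr library and in 0 every one lay below, beside 17.5% and 20.3% of all genes. The changes were small: 5 of the 40 passed 1.5-fold, the largest was 1.96-fold (Rrp12), and the smallest among the called genes was 1.23-fold (Rrs1).

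The number of calls changed with single libraries, among the members and among all genes, of which 7.82% were called higher with all 6 libraries. Leaving out Y-KO replicate 1 gave 5 calls, leaving out replicate 2 gave 6, and leaving out replicate 3 gave 30. Of all genes, 3.86%, 3.9% and 16.0% were called higher in these fits. Leaving out a Y-Scr library gave 10, 3 and 4 calls for replicates 1, 2 and 3, beside 5.2%, 2.45% and 2.56% of all genes called higher. All of these member calls were higher in Y-KO. With the close pairs summed to 1 sample each (Y-KO replicates 1 and 2, Y-Scr replicates 2 and 3), 2 samples stood against 2 and 0 members were called, beside 0.700% of all genes called higher. In that fit 15 members were higher at an unadjusted p under 0.05, for which the share of all genes was not counted. The smallest edgeR adjusted p of a member was 0.0674, for Npm1. Npm1, Ncl and Nop16 were called in all 6 fits that left out 1 library.

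**Figure D1:**
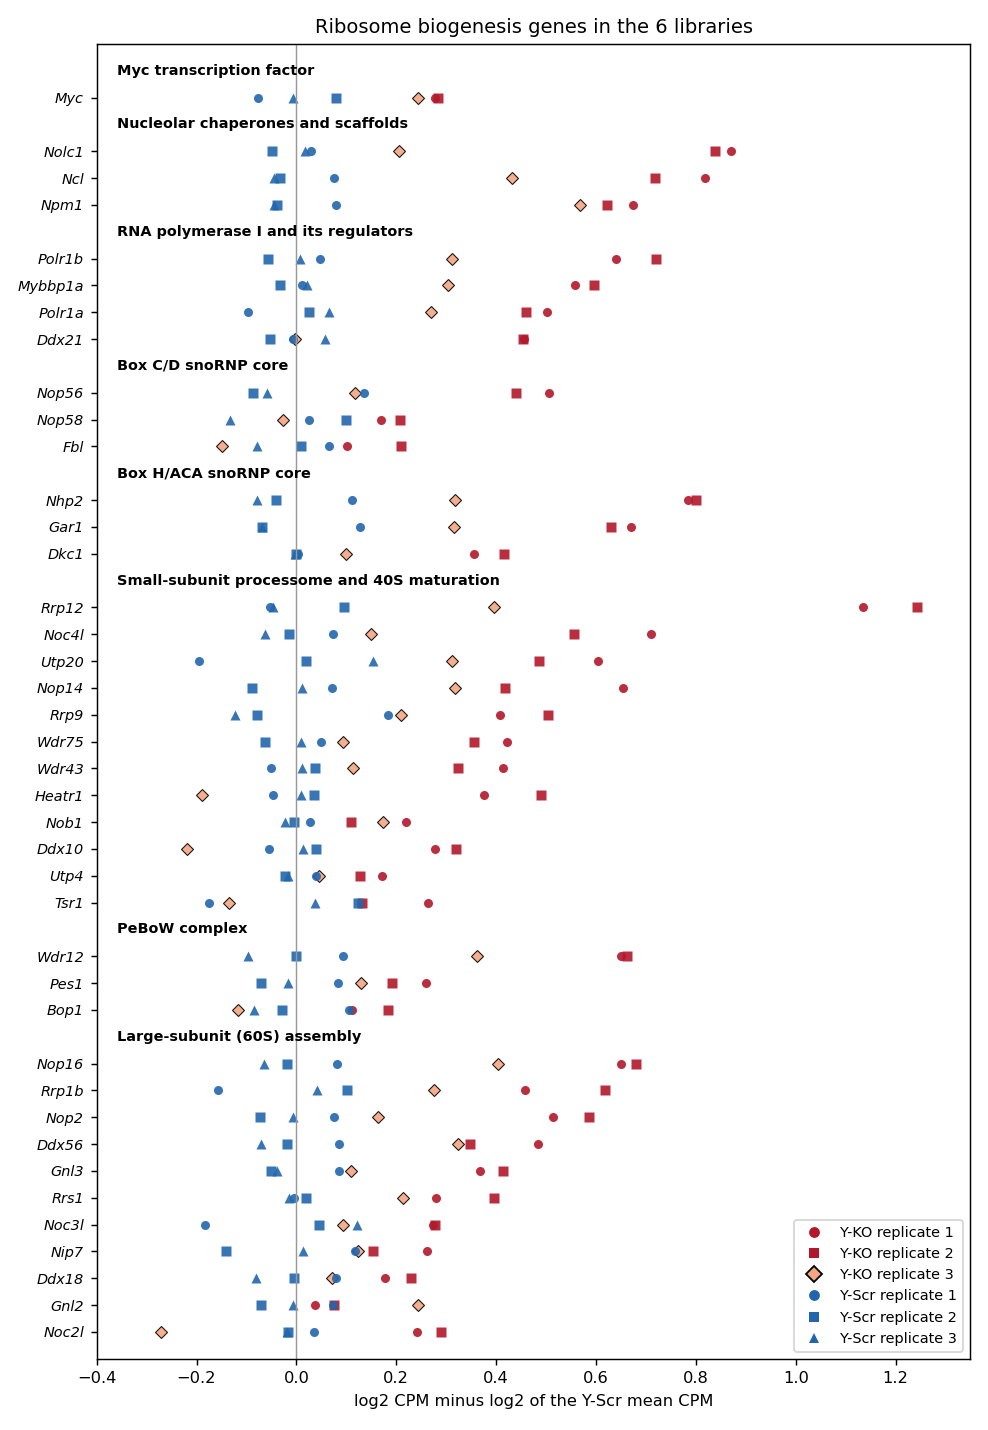
Level of each of the 40 genes in the 6 libraries, as log2 CPM minus the log2 of the gene's Y-Scr mean CPM, grouped by role. Y-KO replicates 1 and 2 (red) lie to the right of every Y-Scr library (blue) in 39 of 40 genes, and Y-KO replicate 3 (orange diamond) does so in 29.

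Myc (chromosome 15, 61857240 to 61862223, GRCm39) did not pass the test. Its values were 168, 169 and 165 CPM in Y-KO and 132, 147 and 138 CPM in Y-Scr (log2 fold change of 0.27, SE 0.08, adjusted p = 0.0509 by edgeR). All 3 Y-KO libraries lay above all 3 Y-Scr libraries, and Y-KO replicate 3 differed from the mean of replicates 1 and 2 by -0.04 log2 units. The value lay at the threshold: DESeq2, limma-voom and edgeR with relative log expression (RLE) scaling, a stricter filter or halved counts called it, with adjusted p from 0.0331 to 0.0487. It was not called by edgeR with library size alone as the scaling (log2 fold change 0.12, adjusted p = 0.329), the replicate block (0.109), no filter (0.102) or close pairs summed (0.310). It was also called by edgeR without Y-KO replicate 3 (adjusted p = 0.00518) and not without any other single library (0.0963 to 0.155).

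All 3 nucleolar chaperones and scaffolds rose. Nucleophosmin (Npm1, chromosome 11, 33102287 to 33113206), a histone and ribosomal protein chaperone of the granular component of the nucleolus, stood at 1281, 1235 and 1189.8 CPM in Y-KO and 848, 782 and 778 CPM in Y-Scr. The groups did not overlap, and replicate 1 was the highest library in each. Its means were 1235 ± 45.4 CPM for Y-KO and 803 ± 39.5 CPM for Y-Scr (SD, n = 3 each), and the ratio was 1.54-fold (log2 fold change of 0.62, SE 0.07, adjusted p = 0.000779 by edgeR). Nucleolin (Ncl, chromosome 1, 86272441 to 86287122), which acts in ribosomal RNA transcription and early processing, stood at 1115, 1040.0 and 852 CPM in Y-KO and 665, 618 and 612 CPM in Y-Scr. Y-KO replicate 3 was the lowest of the Y-KO libraries and still above every Y-Scr library (log2 fold change of 0.67, SE 0.10, adjusted p = 0.00388 by edgeR). Nolc1 (chromosome 19, 46064302 to 46073969), also named Nopp140, binds snoRNPs and shuttles between the nucleolus and Cajal bodies, and its values were 211, 206 and 133 CPM in Y-KO and 118, 111.6 and 117 CPM in Y-Scr. Here Y-KO replicates 1 and 2 were far above the rest, and replicate 3 lay close to the Y-Scr libraries (log2 fold change of 0.67, SE 0.16, adjusted p = 0.0259 by edgeR). Nolc1 was called in the full data and without Y-KO replicate 3, and in no other fit that left out a library (edgeR adjusted p 0.0771 to 0.105). Per kilobase of exon, Npm1 had the highest level of all 40 genes in Y-Scr, 301 CPM per kilobase, followed by Nhp2 with 62.6, Ncl with 62.0 and Myc with 51.2. The lowest were Wdr12 with 3.93, Polr1a with 4.06 and Utp20 with 5.05 CPM per kilobase. The divisor was the summed length of all annotated exons, 11955 bases for Wdr12, 10188 for Ncl and 2665 for Npm1. The order therefore depends on the annotation as well as on the level. Without the divisor the Y-Scr mean was 632 CPM for Ncl and 47.0 CPM for Wdr12.

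Of the 4 genes of RNA polymerase I and its regulators, 3 rose. Polr1a (chromosome 6, 71886037 to 71961919) encodes the largest subunit of the enzyme and stood at 68.2, 66.2 and 58.0 CPM in Y-KO and 45.0, 49.0 and 50.4 CPM in Y-Scr. Polr1b (chromosome 2, 128942915 to 128968514), the next largest catalytic subunit, stood at 72.7, 76.9 and 58.0 CPM in Y-KO and 48.2, 44.9 and 46.9 CPM in Y-Scr. In both genes the groups did not overlap and Y-KO replicate 3 was the lowest Y-KO library (log2 fold change of 0.41, SE 0.10, adjusted p = 0.0246 by edgeR for Polr1a, and log2 fold change of 0.57, SE 0.12, adjusted p = 0.0144 by edgeR for Polr1b). Mybbp1a (chromosome 11, 72332181 to 72342594), a nucleolar protein that binds the polymerase and takes part in precursor processing, stood at 433, 445 and 363 CPM in Y-KO and 296, 287 and 298 CPM in Y-Scr. The Y-Scr libraries lay within a narrow range below all Y-KO libraries (log2 fold change of 0.49, SE 0.09, adjusted p = 0.00912 by edgeR). Ddx21, an RNA helicase that binds the polymerase transcripts and snoRNAs, did not pass, with a log2 fold change of 0.32 (SE 0.13) and an edgeR adjusted p of 0.126. Its values were 266, 266 and 194 CPM in Y-KO and 193, 187 and 202 CPM in Y-Scr, with Y-KO replicate 3 inside the Y-Scr range, and it was called without that library (3.32e-05). With 1 library left out, Polr1a kept its call only without Y-KO replicate 3 (0.0699 to 0.0931 for the edgeR adjusted p in the others). The call of Polr1b was lost without any of Y-KO replicates 1 and 2 and Y-Scr replicates 2 and 3 (0.0526 to 0.0736), and that of Mybbp1a without Y-Scr replicate 2 (0.0540).

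Of the snoRNP core genes among the 40, 2 of the 3 box H/ACA genes, whose complex makes pseudouridine, rose. By edgeR, 0 of the 3 box C/D genes, whose complex methylates ribose in ribosomal RNA, were called. The core genes Nop10 and Snu13 are not among the 40 and were counted with the other small-subunit genes. In the box C/D class 1 gene had an unadjusted p under 0.05, DESeq2 called 1 and limma-voom 0. The difference between the classes was not tested. In the box C/D class the scaffold gene Nop56 (chromosome 2, 130116350 to 130121233) stood at 246, 235 and 188 CPM in Y-KO and 190.3, 163 and 166 CPM in Y-Scr, with a log2 fold change of 0.36 (SE 0.12) and an edgeR adjusted p of 0.0701. Its partner Nop58 (chromosome 1, 59724130 to 59758203) stood at 162, 166 and 141 CPM in Y-KO and 146, 154 and 131 CPM in Y-Scr, with 0.12 (SE 0.10) and 0.462. In both, Y-KO replicate 3 lay inside the Y-Scr range. The methyltransferase gene Fbl had the smallest log2 fold change of the 40, 0.06 (SE 0.11), with Y-KO replicate 3 at 146 CPM below all Y-Scr libraries. In the H/ACA class Nhp2 (chromosome 11, 51510562 to 51514541) stood at 124, 125 and 89.4 CPM in Y-KO and 77.6, 69.7 and 67.9 CPM in Y-Scr. Gar1 (chromosome 3, 129618561 to 129625045) stood at 48.9, 47.5 and 38.2 CPM in Y-KO and 33.6, 29.3 and 29.3 CPM in Y-Scr. All Y-KO libraries were above all Y-Scr libraries for both genes (log2 fold change of 0.65, SE 0.14, adjusted p = 0.0150 by edgeR for Nhp2, and log2 fold change of 0.55, SE 0.12, adjusted p = 0.0201 by edgeR for Gar1). Dkc1, the pseudouridine synthase, was at 101, 105 and 84.6 CPM in Y-KO and within 78.9 to 79.2 CPM in Y-Scr, and did not pass, with an edgeR adjusted p of 0.0797 for a log2 fold change of 0.30 (SE 0.10). The calls of Nhp2 and Gar1 were each lost without Y-KO replicate 1 or 2 or Y-Scr replicate 2 or 3, with edgeR adjusted p from 0.0545 to 0.0779 and from 0.0701 to 0.0980, and Nop56 and Dkc1 were called without Y-KO replicate 3 (0.000122 and 0.000666).

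Of the 12 genes of the small-subunit processome and small-subunit maturation, 4 rose. Rrp12 (chromosome 19, 41851290 to 41884612), which helps export the precursor particles, had the largest change of the 40 genes at 70.8, 76.2 and 42.4 CPM in Y-KO and 31.1, 34.4 and 31.2 CPM in Y-Scr. Y-KO replicates 1 and 2 were far above the Y-Scr libraries, and replicate 3 stood between (log2 fold change of 0.97, SE 0.20, adjusted p = 0.0138 by edgeR). Nop14 and Noc4l, whose proteins bind each other in the processome, both rose. Nop14 (chromosome 5, 34795880 to 34817492) stood at 67.9, 57.6 and 53.8 CPM in Y-KO and 45.3, 40.6 and 43.5 CPM in Y-Scr, and Noc4l (chromosome 5, 110796284 to 110801283) at 63.1, 56.7 and 42.8 CPM in Y-KO and 40.6, 38.1 and 36.9 CPM in Y-Scr. The groups did not overlap in either gene (log2 fold change of 0.47, SE 0.11, adjusted p = 0.0238 by edgeR for Nop14, and log2 fold change of 0.49, SE 0.14, adjusted p = 0.0496 by edgeR for Noc4l). Utp20 (chromosome 10, 88582469 to 88662666), a large scaffold protein of the processome, stood at 78.4, 72.2 and 64.0 CPM in Y-KO and 45.0, 52.3 and 57.3 CPM in Y-Scr. Its Y-KO libraries were all above its Y-Scr libraries, with the smallest gap between Y-KO replicate 3 and Y-Scr replicate 3 (log2 fold change of 0.47, SE 0.12, adjusted p = 0.0305 by edgeR). With 1 library left out, Nop14, Noc4l and Utp20 kept their calls only without Y-KO replicate 3, and the edgeR adjusted p in the other fits was 0.0511 to 0.166 over the 3 genes. Rrp12 lost its call without Y-KO replicate 1 or any Y-Scr library (0.0504 to 0.0695).

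The other 8 genes of this class did not pass. Of the proteins that join the precursor during its transcription, Heatr1 had a log2 fold change of 0.25 (SE 0.16), Wdr43 of 0.29 (SE 0.10), Wdr75 of 0.30 (SE 0.11) and Utp4 of 0.12 (SE 0.08). Heatr1 spread widely within Y-KO, at 93.6, 101 and 63.3 CPM in Y-KO and 69.9, 74.0 and 72.7 CPM in Y-Scr, so that 2 Y-KO libraries lay above and 1 below the Y-Scr range. Rrp9, a snoRNP protein, had 0.38 (SE 0.12), the helicase gene Ddx10 0.15 (SE 0.14), the late factor gene Tsr1 0.10 (SE 0.13) and the nuclease gene Nob1, which trims the end of the small-subunit RNA, 0.17 (SE 0.08). For Tsr1, 32.3% of exon bases also belong to Srr on the opposite strand. Counting is not recorded as strand-specific, so reads of Tsr1 and Srr cannot be told apart there. Heatr1, Wdr43, Wdr75, Rrp9 and Ddx10 were called higher without Y-KO replicate 3, and Rrp9 was also called without Y-Scr replicate 1 (edgeR adjusted p from 0.000404 to 0.0441).

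In the PeBoW complex, which processes the spacer of the large-subunit RNA, 1 of 3 genes rose. Wdr12 (chromosome 1, 60108944 to 60137804) stood at 73.7, 74.4 and 60.4 CPM in Y-KO and 50.1, 46.9 and 43.9 CPM in Y-Scr. The groups did not overlap (log2 fold change of 0.56, SE 0.11, adjusted p = 0.0112 by edgeR). Its partner Pes1 (chromosome 11, 3913975 to 3930004) stood at 124, 118 and 113 CPM in Y-KO and 109.8, 98.7 and 102 CPM in Y-Scr, above Y-Scr in each Y-KO library but by less, with a log2 fold change of 0.19 (SE 0.08) and an edgeR adjusted p of 0.157. The third subunit gene, Bop1, had a log2 fold change of 0.07 (SE 0.10), with Y-KO replicate 3 (97.9 CPM) below all Y-Scr libraries. Wdr12 was not called without Y-Scr replicate 2 or 3 (0.0591 to 0.0643), and Pes1 was called without Y-KO replicate 3 (0.0283), both edgeR adjusted p.

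Of the 11 other large-subunit assembly genes, 5 rose. Nop16 (chromosome 13, 54731998 to 54737903), an early assembly factor, stood at 65.7, 67.1 and 55.3 CPM in Y-KO and 44.3, 41.3 and 40.02 CPM in Y-Scr, with no overlap (log2 fold change of 0.58, SE 0.10, adjusted p = 0.00785 by edgeR). Ddx56 (chromosome 11, 6208919 to 6217772), a helicase, stood at 70.7, 64.4 and 63.4 CPM in Y-KO and 53.7, 49.9 and 48.2 CPM in Y-Scr, and here Y-KO replicates 2 and 3 were nearly equal (log2 fold change of 0.39, SE 0.09, adjusted p = 0.0241 by edgeR). Both genes were higher in 3 of 3 Y-KO libraries than in any Y-Scr library. Rrp1b (chromosome 17, 32255074 to 32281839), a nucleolar protein of early large-subunit particles, stood at 61.1, 68.3 and 53.8 CPM in Y-KO and 39.9, 47.7 and 45.8 CPM in Y-Scr (log2 fold change of 0.46, SE 0.12, adjusted p = 0.0328 by edgeR). Nop2 (chromosome 6, 125108872 to 125121716), a methyltransferase of the large-subunit RNA whose promoter window is printed above, stood at 123, 129 and 96.5 CPM in Y-KO and 90.7, 81.9 and 85.7 CPM in Y-Scr (log2 fold change of 0.43, SE 0.12, adjusted p = 0.0408 by edgeR). In both the lowest Y-KO library was replicate 3. Rrs1 (chromosome 1, 9615633 to 9617680), which recruits the small ribosomal RNA of the large subunit, stood at 105, 114 and 100.1 CPM in Y-KO and 86.1, 87.6 and 85.5 CPM in Y-Scr, with the Y-Scr libraries close together below all Y-KO libraries (log2 fold change of 0.30, SE 0.08, adjusted p = 0.0433 by edgeR). Rrp1b, Nop2 and Rrs1 also kept their calls in 1 of the 6 fits with a library left out, that without Y-KO replicate 3 (edgeR adjusted p from 0.0732 to 0.151 in the others), and Ddx56 lost its call without Y-KO replicate 1 or 2 or Y-Scr replicate 2 or 3 (0.0600 to 0.114).

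The remaining 6 large-subunit genes did not pass. Log2 fold changes were 0.30 (SE 0.10) for Gnl3 (nucleostemin), 0.22 (SE 0.12) for Noc3l, 0.18 (SE 0.10) for Nip7, 0.16 (SE 0.09) for the helicase gene Ddx18, 0.12 (SE 0.09) for the GTPase gene Gnl2 and 0.11 (SE 0.14) for Noc2l. Among these 6, Gnl2 was the exception to the order of the Y-KO libraries, and Y-KO replicate 3 was its highest library. It stood at 60.7, 62.3 and 70.1 CPM in Y-KO and 62.3, 56.3 and 58.9 CPM in Y-Scr. Noc2l spread in the opposite way, with Y-KO replicate 3 at 61.7 CPM below all 3 Y-Scr libraries (73.4 to 76.3 CPM) and replicates 1 and 2 above them. It shares 14.4% of its exon bases with Samd11. Gnl3 and Noc2l were called higher without Y-KO replicate 3 (edgeR adjusted p of 0.000665 and 0.0122).

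**Figure D2:**
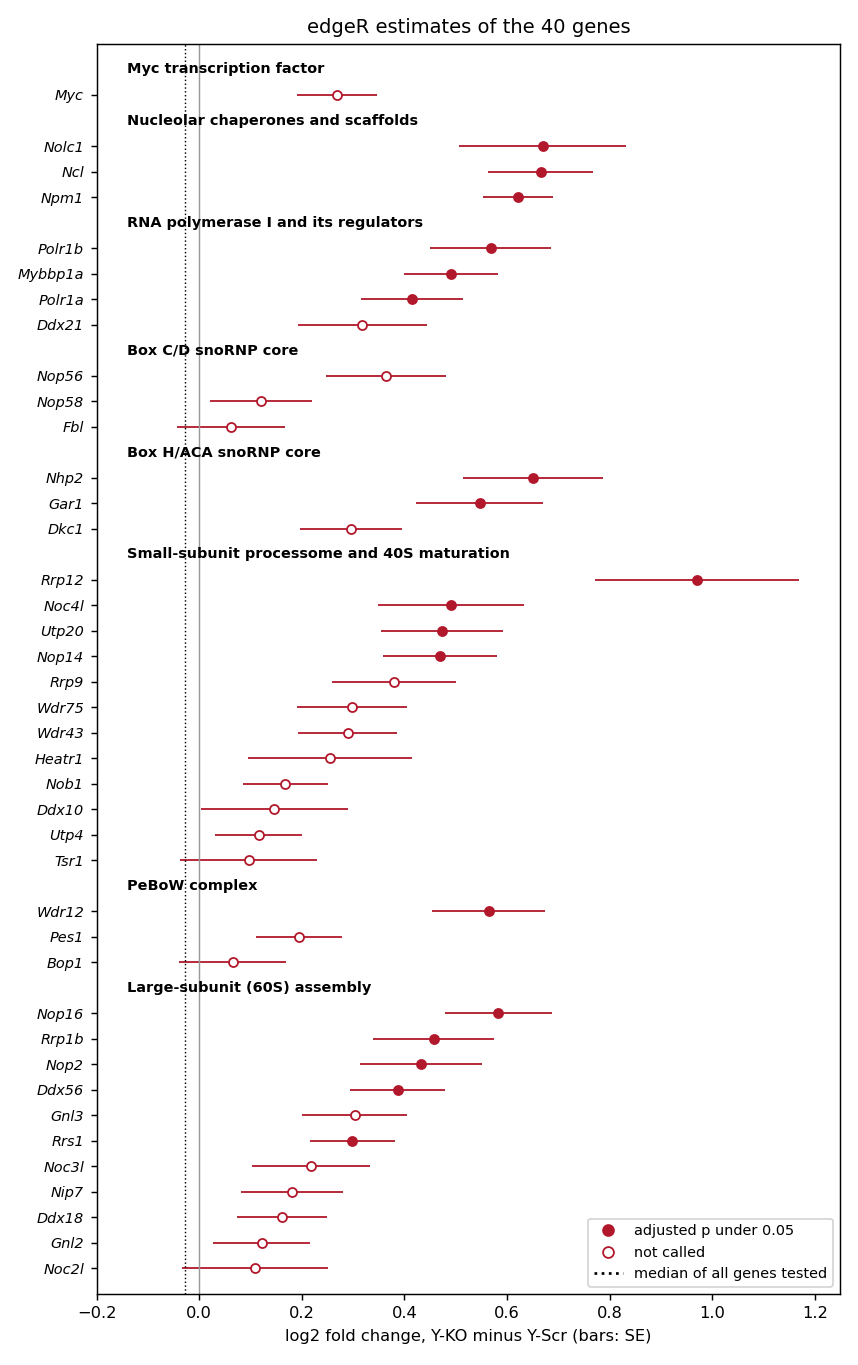
Log2 fold change (Y-KO minus Y-Scr, 3 libraries each) of the 40 genes from the edgeR fit, with bars of 1 SE. Filled points are the 18 genes with an adjusted p under 0.05, open points the 22 others, and the dotted line is the median of all genes tested, -0.03.

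By role, the median log2 fold change was 0.67 in the chaperones and scaffolds (3 of 3 called), 0.55 in the H/ACA class (2 of 3), 0.45 in the polymerase group (3 of 4), 0.30 in large-subunit assembly (5 of 11), 0.29 in the small-subunit group (4 of 12), 0.19 in PeBoW (1 of 3) and 0.12 in the box C/D class (0 of 3). The median SE of a member was 0.11, and these differences between roles were not tested. All role medians were above 0, and with library size alone as the scaling that of the box C/D class was -0.02.

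The Y-KO libraries differed among themselves. Mean log2 CPM over the 40 genes was 6.71, 6.71 and 6.43 for the Y-KO libraries in replicate order. It was 6.29, 6.25 and 6.25 for the Y-Scr libraries, so that replicate 3 lay between the other Y-KO libraries and Y-Scr. Replicates 1 and 2 were both above every Y-Scr library in 39 of 40 genes (26.9% of all genes tested), the exception being Gnl2. Replicate 3 was above every Y-Scr library in 29 of 40 (34.9% of all genes), within their range in 6 (Ddx21, Nop56, Nop58, Tsr1, Ddx18 and Noc3l) and below it in 5 (Fbl, Heatr1, Ddx10, Bop1 and Noc2l; 38.0% of all genes). It was lower than the mean of replicates 1 and 2 in 38 of 40, all but Gnl2 and Nob1, beside 49.6% of all genes. The median difference from the Y-Scr mean was 0.42 log2 units for replicates 1 and 2 and 0.17 for replicate 3, where the medians over all genes were -0.04 and -0.01. The largest drops from replicates 1 and 2 to replicate 3 were in Rrp12 (-0.79), Nolc1 (-0.65), Heatr1 (-0.62), Noc2l (-0.54) and Ddx10 (-0.52). With 1 library on one side this order has no test.

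**Figure D3:**
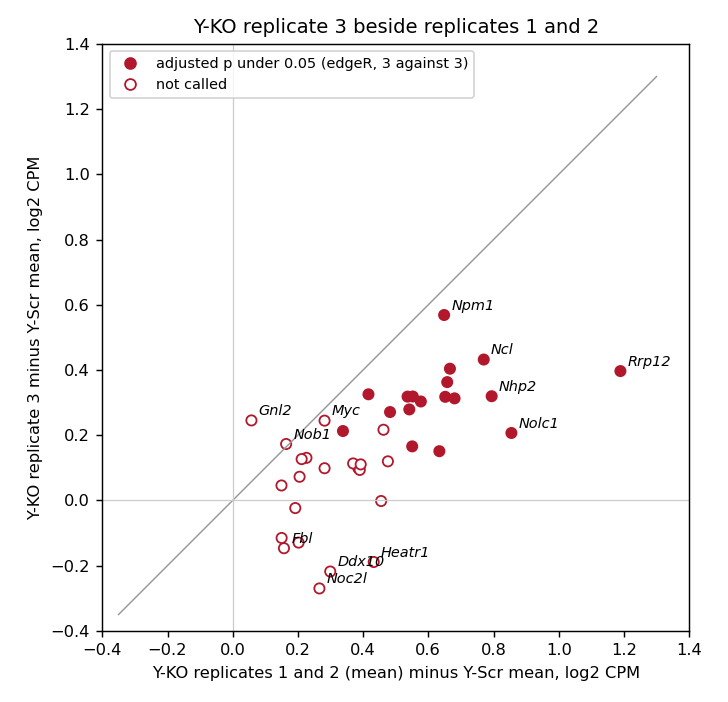
Difference from the Y-Scr mean in log2 CPM for each of the 40 genes, in the mean of Y-KO replicates 1 and 2 (horizontal) and in Y-KO replicate 3 (vertical). The diagonal marks equal differences, and 38 of 40 genes lie below it. Filled points are the 18 called genes.

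Other genes of the pathway, 131 listed of which 127 were tested, also included more risen than fallen genes. Of the 127, 20 rose and 0 fell, 107 had a log2 fold change above 0, and the median was 0.20. With library size alone as the scaling, 4 were higher and 4 lower and the median was 0.06. Their share called higher, 15.7%, stands beside 7.82% of all genes and 45.0% of the members. The difference from the members was not tested. Of the 12 other polymerase I genes edgeR called 0, where 3 were higher and 2 lower at an unadjusted p under 0.05, DESeq2 called 0 and limma-voom 1, which was lower. The genes named from each list are the called ones of smallest p, with the log2 fold change in brackets. In the small-subunit list 9 of 47 rose, led by Aatf (0.54), Pdcd11 (0.62), a processome scaffold, and Fcf1 (0.37), a nuclease. In the large-subunit list 9 of 48 rose, led by Eif6 (0.64), which keeps the subunits apart until maturation ends, Rrp15 (0.44) and Pelp1 (0.46). Of 20 exosome and RNase MRP genes, Exosc1 (0.59) and Exosc9 (0.45) rose. Eif6 stood at 208, 216 and 182 CPM in Y-KO and 137, 129 and 123 CPM in Y-Scr, with no overlap between groups. Aatf, Pdcd11 and Eif6 were called in all 6 fits that left out a library. Fcf1, Rrp15 and Exosc9 were not called without Y-KO replicate 1 or 2 or Y-Scr replicate 2 or 3, Exosc1 not without Y-KO replicate 1 or 2 or Y-Scr replicate 1 or 2, and Pelp1 was called only without Y-KO replicate 3 (edgeR adjusted p up to 0.122). Without Y-KO replicate 3, 61 of these genes were higher and 4 lower, without Y-KO replicate 1 or 2 or Y-Scr replicate 2 the count higher was 3, without Y-Scr replicate 1 or 3 it was 12 and 4, and with the close pairs summed it was 0.

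The ribosomal proteins, the components that these factors assemble, were ordered otherwise across the Y-KO libraries. Of 58 cytosolic ribosomal protein genes 9 rose and 0 fell, with a median log2 fold change of 0.10 (-0.04 with library size alone), led by Rplp2 (0.59), Rps2 (0.40) and Rpl18 (0.45). In 57 of the 58, Y-KO replicate 3 was higher than the mean of replicates 1 and 2 (median difference 0.22 log2 units), where 38 of the 40 members were lower there. Without Y-KO replicate 3, 13 of the 58 were higher and 6 lower, without Y-Scr replicate 1 the count higher was 14, without Y-KO replicate 1 it was 5, and without Y-Scr replicate 2 or 3 only 1 was called, higher. Leaving out Y-Scr replicate 2 or 3 ended the calls of Rps2 and Rpl18, at edgeR adjusted p values of up to 0.0691. Ribosomal protein genes have many near-identical pseudogenes, so that their counts are uncertain. Genes of DNA replication and mitosis gave counts nearer those of the members: 11 of 34 rose, 0 fell, the median was 0.31 (0.17 with library size alone), and all 34 were lower in Y-KO replicate 3 than in replicates 1 and 2. Cdt1 (0.72), Mcm7 (0.52) and Mcm3 (0.58), which license replication origins, led this list, and of the fits that left out a library Mcm3 was called only in the one without Y-KO replicate 3 (edgeR adjusted p up to 0.0908 in the others). The count was 29 of 34 without Y-KO replicate 3, without any one of Y-KO replicates 1 and 2 and Y-Scr replicates 2 and 3 it was 2, and without Y-Scr replicate 1 it was 4.

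The Myc network itself had a median of -0.07 over 16 genes. With library size alone as the scaling it was -0.21, with 1 gene called higher and 2 lower. Mxi1 (0.50) and Mnt (0.36), which pair with Max and oppose Myc, and Ruvbl2 (0.44), an ATPase that binds Myc, rose. Mycn had 0 counts in the 3 Y-KO libraries and 45 counts over the 3 Y-Scr libraries, which is at least 13.4-fold lower in Y-KO if 3 counts summed over the group are taken as the floor. Its level was 0.374 CPM or less everywhere, and it was called in 1 of the 6 fits that left out a library, the one without Y-KO replicate 3. Of 19 tested Myc targets with functions outside the nucleolus, 11 rose and 1 fell, with a median of 0.35. With library size alone as the scaling, 6 were higher and 1 lower and the median was 0.21. With the close pairs summed 1 was higher and 0 lower. Shmt2 (1.21), a mitochondrial enzyme of serine metabolism, stood at 295, 295 and 216 CPM in Y-KO and 123, 111 and 114 CPM in Y-Scr, a larger change than in any of the 40 members. Hspd1 (0.82), a mitochondrial chaperone, and Ldha (0.38), lactate dehydrogenase, also rose, and Tfrc (-0.66), the transferrin receptor, fell. Ruvbl2 was not called without Y-KO replicate 1 or 2 or Y-Scr replicate 2 or 3, Tfrc not without Y-KO replicate 2 or any 1 Y-Scr library, and Mnt was called only without Y-KO replicate 3 (edgeR adjusted p up to 0.151). Without Y-Scr replicate 2 the count of this list was 3 higher, without Y-KO replicate 1 or Y-Scr replicate 3 it was 4, without Y-KO replicate 2 it was 5, and without Y-KO replicate 3 it was 16.

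**Figure D4:**
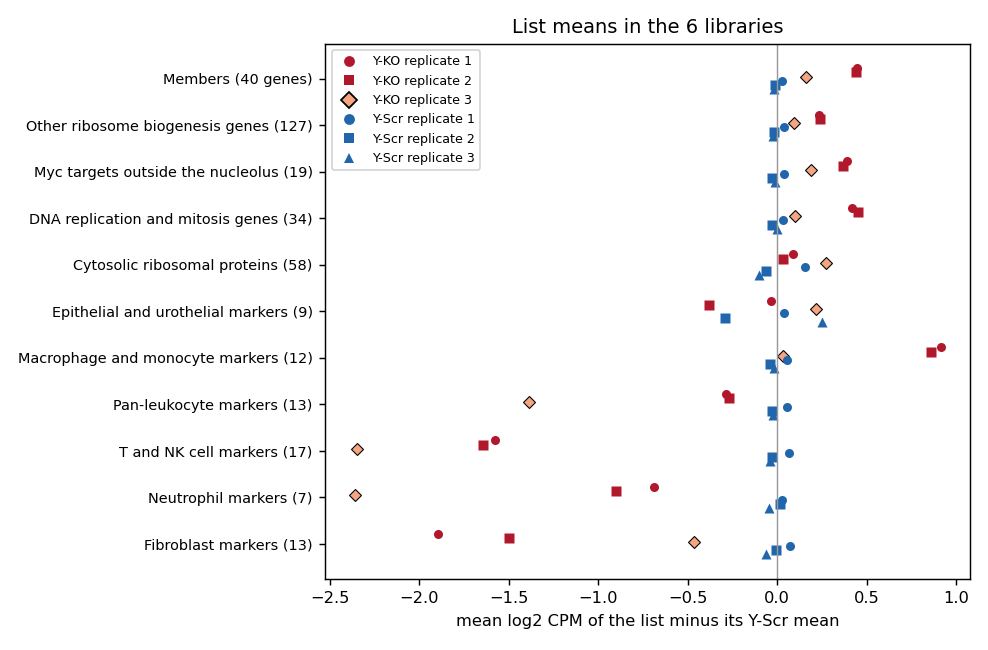
Mean log2 CPM of each gene list in the 6 libraries, minus its Y-Scr mean, with the number of genes in brackets. Y-KO replicate 3 (orange diamond) lies between replicates 1 and 2 and the Y-Scr libraries for the members and the replication genes, above all other libraries for ribosomal proteins, and far to the left for the leukocyte and neutrophil markers.

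Markers of other cell types moved with the groups, and their part in the result was not tested. Of 13 pan-leukocyte markers 4 fell and 0 rose, and their summed level was 1514 to 3317 CPM in Y-KO and 3941 to 4105 CPM in Y-Scr, with Y-KO replicate 3 the lowest. The called ones with the smallest p were Rac2 (-1.17), Ptprc (-1.23) and Cd52 (-0.78). Without any 1 Y-Scr library the count was 1, and without Y-KO replicate 3 it was 7 lower and 3 higher. Of 17 T and NK cell markers 15 fell (Ncr1 -3.99, Gzma -3.15, Foxp3 -2.90), with sums of 198 to 359.8 and 1199 to 1273 CPM. Of 7 tested B cell markers 5 fell, among them Ighm (-1.93), Cd79a (-2.85) and Cd79b (-1.79), with sums over the 8 listed of 26.9 to 33.0 and 95.5 to 104 CPM. Of 7 tested neutrophil markers 5 fell, among them Csf3r (-1.45), S100a8 (-1.67) and Cxcr2 (-1.23), with sums over the 8 listed of 198 to 618 and 1237 to 1429 CPM. Without any 1 Y-Scr library 1 neutrophil marker was called. Ptprc, Cd52, S100a8 and Cxcr2 were not called without any 1 Y-Scr library (edgeR adjusted p up to 0.114). Macrophage markers went the other way: 5 of 12 rose, led by the complement genes C1qc (1.18), C1qb (1.06) and C1qa (1.23), the count was 10 without Y-KO replicate 3, and the sum was 2743 and 2716 CPM for replicates 1 and 2 of Y-KO, 1360.3 CPM for replicate 3 and 1683 to 1809 CPM in Y-Scr. In the macrophage sum Y-KO replicates 1 and 2 were above every Y-Scr library and replicate 3 was below every one. Such a sum weighs the most abundant genes most. Gene by gene, Y-KO replicate 3 was above every Y-Scr library in 6 of the 12 macrophage markers, below in 5 and within in 1. Among all genes it was above in 34.9% and below in 38.0%. Its median difference from the Y-Scr mean was 0.03 log2 units over these markers. For the members the sum in Y-KO replicate 3, 5420 CPM, was above the Y-Scr sums of 4435 to 4659 CPM.

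Stromal and epithelial markers also differed. Of 13 fibroblast markers 4 fell, led by Thy1 (-1.76), Col5a1 (-1.50) and Col3a1 (-2.24), and 9 were lower without Y-KO replicate 3, with sums of 215 to 683 CPM in Y-KO, highest in replicate 3, and 1068 to 1122 CPM in Y-Scr. None of 9 tested endothelial and 5 tested pericyte markers was called by edgeR, where at an unadjusted p under 0.05 the counts were 1 higher and 1 lower, and 0 higher and 2 lower. DESeq2 called 1 endothelial and 0 pericyte markers, and limma-voom 0 and 2. Red-cell genes, among them Hbb-bs (-9.70), Hba-a1 (-7.48) and Hba-a2 (-8.19), fell in 5 of 5 tested, with sums of 0.931 to 1.07 CPM in Y-KO and 230.4 to 272 CPM in Y-Scr. In Y-KO these 3 genes reached at most 0.272, 0.677 and 0.144 CPM. That is near the floor, so the sizes of their fold changes are uncertain. Of 9 tested epithelial markers 4 rose, led by Krt14 (1.83), Krt19 (2.82) and Krt18 (0.43), and Epcam fell (-1.81). At an unadjusted p under 0.05, 4 were higher and 4 lower, as they were by DESeq2 and without Y-KO replicate 3, and limma-voom called 4 higher and 2 lower with a median of -0.26 in place of 0.41. The summed level, with the keratin genes in it, was 3278 to 3471 CPM in Y-KO and 2412 to 2739.8 CPM in Y-Scr.

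**Figure D5:**
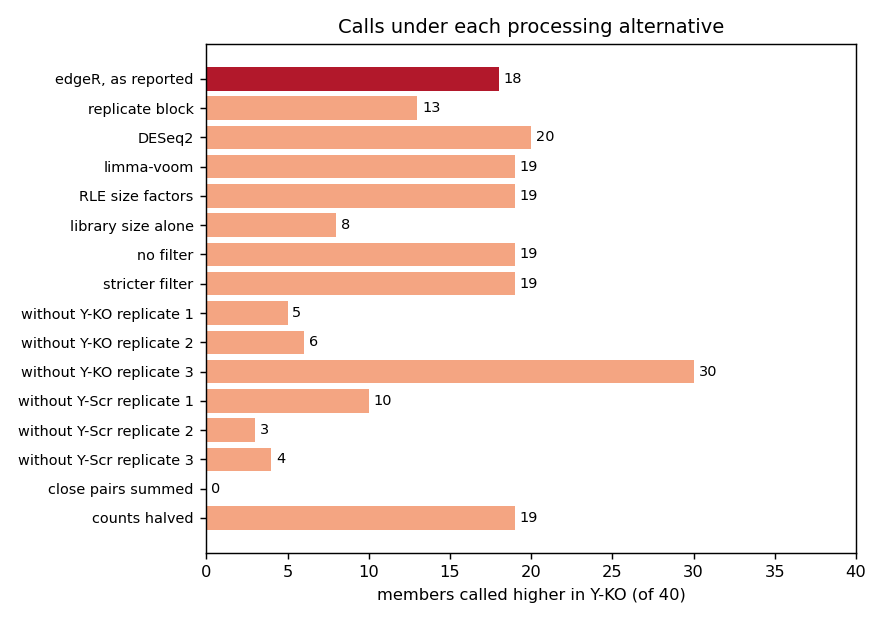
Number of the 40 genes called higher in Y-KO under each processing alternative, with the result of the text in dark red. The count was 18 as reported, 19 or 20 with other tools, filters, RLE size factors and halved counts, 13 with the replicate number as a block, 8 with library size alone, 3 to 30 with 1 library left out and 0 with close pairs of libraries summed.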

How the data were processed

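RNA of CD45-negative cells sorted from tumours was sequenced in 6 poly-A libraries. The deposited values are raw counts of reads per gene, 1 column per library, in a table that the authors made with featureCounts 1.5.3 and the Ensembl 112 annotation, per the file headers. Per the submitters' processing notes, reads passed FastQC 0.12.1, MultiQC 1.13, Trimmomatic 0.39 and STAR 2.5.2b on GRCm39. The header records no strand or pair option. Between 80.3% and 82.3% of counts from 2 to 20 were even, so both reads of a pair may have been counted.

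Symbols were matched by gene ID to an older mouse annotation (51880 of 57186 IDs, 90.7%), and 401 of 405 list entries matched. In R 4.3.3, edgeR 4.0.16 kept 17837 genes (filterByExpr, minimum count 10, minimum total 15), scaled them by TMM and ran the quasi-likelihood test on group alone. A gene was called at a p below 0.05 after Benjamini-Hochberg adjustment over these genes. Log2 CPM used a prior count of 2. The SE was taken as the log2 fold change over the root of edgeR's F. The fit was tested on simulated data with independently drawn libraries and changes of 1.5-fold or more. Only 5 of the 40 members passed 1.5-fold, and the real libraries include close pairs and an outlying Y-KO replicate 3. The simulation does not cover these conditions.

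Alternatives were a replicate block, DESeq2 1.42.0, voom of limma 3.58.1, other scalings and filters, each library left out, close pairs summed and halved counts. The members, lists and alternatives were chosen with earlier results of these data known. By rule the text names every member, gives all libraries for Myc, called members and the 2 members of smallest p per role, and names up to 3 called genes per direction of each other list. Ddx21, Fbl, Dkc1, Heatr1, Bop1, Gnl2, Noc2l and Shmt2 have further values that were chosen after seeing them. Promoters are RefSeq windows of GRCm38.p6. Figures used matplotlib 3.10.9.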

Additional observations from a re-analysis of the deposited data

How the results depend on the processing

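The members' median log2 fold change stayed between 0.17 and 0.42 over the 15 alternatives, and 0 members were called lower under any of them. Called members numbered 8 with library size alone, 3 to 30 with 1 library left out and 0 with close pairs summed. All genes called numbered 1037 to 6393 with 1 library left out and 496 with close pairs summed. Other ribosome biogenesis genes called higher numbered 4 with library size alone, 3 to 61 with 1 library left out, 8 with the replicate block and 0 with close pairs summed. Those called lower numbered 1 with limma-voom, 4 with library size alone, 1 with no filter and 0 to 4 with 1 library left out. The sign turned with library size alone, without a call, in Fbl (-0.081), Nop58 (-0.023), Utp4 (-0.0273), Tsr1 (-0.0489), Bop1 (-0.0779), Gnl2 (-0.0205) and Noc2l (-0.0355), and in Fbl without Y-KO replicate 2 (-0.0188, over a range up to 0.155 with 1 library left out). The cause of these shifts was not tested, and the smaller fits also had fewer samples. Whether the replicate numbers pair the samples is not known. Same-numbered libraries had correlations of -0.00835, 0.0049 and -0.0145 in their deviations from the group means, beside -0.0107 to 0.0172 for differently numbered ones. These values showed no closeness by number, but with 3 libraries per group they cannot exclude a pairing. With the number as a block 13 members and 2066 genes were called, and all 13 were among the 18. Member counts of at least 1306 reads mean that the spread between libraries, not counting error, limits precision.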
